A study of Mus musculus with 31 samples.

Results

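The genes described here are 10 members of the interleukin 6 (IL-6) system in the left masseter muscle (MM) of mice: the cytokines Il6, Lif, Osm and Il11, the receptor chains Il6ra, Il6st, Osmr and Lifr, and the intracellular pair Stat3 and Socs3. They were taken by name, as the rows with these symbols, with earlier results of these data known, and they are 10 of 22609 genes listed in each of 31 count tables, of which 19277 had a count in at least 1 library. Each table is a bulk RNA-seq library of 1 male C57BL/6J mouse, wild-type and 2 to 4 months old by the study's text. CFA (complete Freund's adjuvant, mixed 1:1 with PBS, a standard way to inflame a tissue) was injected into the MM of 3 mice collected at 1d and 3 at 5d, and 3 mice formed the vehicle group of that experiment. Collagenase type 2 (Col), an enzyme that degrades extracellular matrix, was given at 0.2U to 4 mice of a group labelled 1C and 4 of a group labelled RPC, and at 10U to 4, 3 and 4 mice of groups labelled 2d, 6d and 12d, beside 3 vehicle mice. The titles name these 3 only as controls, and they were taken as the vehicle of all Col groups, which is an assumption. The study's text gives the 10U days as 1, 6 and 14, the labels do not say which day 1C and RPC stand for, and the collection day of the vehicle mice is not given, so the labels' names are kept. No group carried a genetic change. The question put to the members was how much of each RNA was present in every mouse, and which of them differed between an injected group and its own vehicle.

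Cytokines of this family share a signalling chain. IL-6 and IL-11 first bind a receptor of their own, LIF binds the LIF receptor (Lifr), and oncostatin M (Osm) binds in mice mainly the oncostatin M receptor (Osmr), and all of these complexes need gp130, which Il6st encodes. Gp130 brings Janus kinases together, these phosphorylate STAT3, and STAT3 enters the nucleus and drives genes that include Socs3, whose protein binds gp130 and the kinases and ends the signal. In skeletal muscle, the family is known for acute responses to injury and contraction and for effects on muscle stem cells and on sensory neurons.

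Each library held between 14843778 and 29076671 reads that were assigned to a gene. The 8 muscle fibre markers summed to between 32469 and 224067 reads per 1000000 reads on genes (CPM) and none was at 0 in any group, so the labelled tissue was there in every group. The 9 salivary gland markers summed to under 1 CPM in some mice and to 178954 CPM in others, which shows RNA of another tissue in part of the libraries. Within the vehicle mice of the Col experiment they summed to 25.7, 112510 and 26294 CPM. Reads that fitted more than 1 gene made up 0.675 to 0.875% of counted reads in the 11 libraries of 10U Col and 0.147 to 0.317% in the other 20, the Col vehicle among them, so the handling of the reads and the 10U dose cannot be told apart. CPM are given after scaling of library sizes by the trimmed mean of M-values (TMM). In bulk tissue, fewer cells of a type and less RNA per cell cannot be told apart.

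The promoter of Socs3 is shown because it holds letters that STAT3 is known to bind and because most results turn on this member. A promoter of 300 bases, 250 before and 50 after the transcription start, was found in RefSeq (GRCm38.p6) for 9 of the 10 members, 11 start sites in all, and none for Osm. The motif TTCNNNGAA, searched on both strands, occurs in 8.3% of 32851 such promoters, and Socs3 alone among the 9 members held a match. The 250 bases before the start of Socs3 (chr11:117969367-117969616, minus strand) follow, 5′ to 3′, with the match in capitals.
Socs3: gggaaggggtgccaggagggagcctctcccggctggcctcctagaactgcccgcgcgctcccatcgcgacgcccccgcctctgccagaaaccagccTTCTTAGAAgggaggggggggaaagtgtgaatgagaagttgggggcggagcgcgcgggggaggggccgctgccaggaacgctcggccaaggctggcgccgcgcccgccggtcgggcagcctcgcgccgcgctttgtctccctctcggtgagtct
The match begins 154 bases before the start. A second motif, TGACTCA, the letters of AP-1 (the Fos and Jun factors), occurs in 5.2% of promoters on either strand and was found in those of 3 cytokines. Up to 12 bases on each side are shown for Il6 (chr5:30012864-30012883, plus strand), Lif (chr11:4257328-4257358, plus strand) and Il11 (chr7:4778221-4778251, minus strand), with the match in capitals, and TGAGTCA is the same motif read on the other strand.
Il6: cTGAGTCActtttaaagaaa
Lif: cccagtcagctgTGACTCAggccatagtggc
Il11: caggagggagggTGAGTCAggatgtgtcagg
A match is a description of the letters and not a site shown to be bound.

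The receptor side of the system was present in muscle of vehicle mice, given PBS by the study's text, and the cytokine side was close to absent. Over the 6 vehicle mice of both experiments, levels per exon length (RPKM, which divides CPM by the exon length in kilobases) ran in the order Il6st, Stat3, Lifr, Il6ra, Osmr, Socs3, Lif, Osm, Il6 and Il11. Il6st, the shared gp130 chain, had a median of 71.6 RPKM (59.2 to 90.8) and stood above every other member. Stat3 (median 10.5 RPKM), Lifr (10.4) and Il6ra (7.20) overlapped one another. Osmr followed at 4.54 RPKM (3.67 to 5.39) and Socs3 at 2.55 (2.08 to 3.93), and these neighbours overlapped in range. Lif was the most abundant cytokine by this measure at 0.274 RPKM, followed by Osm at 0.0818, Il6 at 0.0200 and Il11 at 0.0165. Vehicle mice of the 2 experiments were also compared with each other, and none of the 7 members tested was called (edgeR adjusted p of 1 each, 0 at an unadjusted p under 0.05, 0 by DESeq2), where 0.0426% of 14070 genes were.

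Socs3 (chr11:117827393-117831361, mm9, minus strand), the feedback inhibitor, had the largest fitted changes in the early groups among members counted in every mouse. In the CFA experiment, its level was 8.48, 6.02 and 6.81 CPM in vehicle mice, 140, 12.9 and 152 CPM at 1d and 8.10, 17.6 and 16.5 CPM at 5d. At 1d, 2 of the mice were thus far above vehicle, and mouse 2 was above it by much less. In the Col experiment, vehicle mice had 6.89, 7.85 and 11.4 CPM, and the 10U 2d mice 105, 154, 145 and 10.1 CPM. The pattern was the same: 3 of the 4 mice were far above vehicle and mouse 4 lay within its range. By the 10U 6d group the level was 16.2, 22.2 and 27.7 CPM, above all vehicle mice, and in the 10U 12d group, at 7.46 to 12.9 CPM, it overlapped vehicle again. In the order of group medians, CFA vehicle (6.81 CPM), Col vehicle (7.85) and 10U 12d (10.9) were lowest and 10U 2d (125) and CFA 1d (140) highest, and each neighbouring pair in that order overlapped in range.

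**Figure D1:**
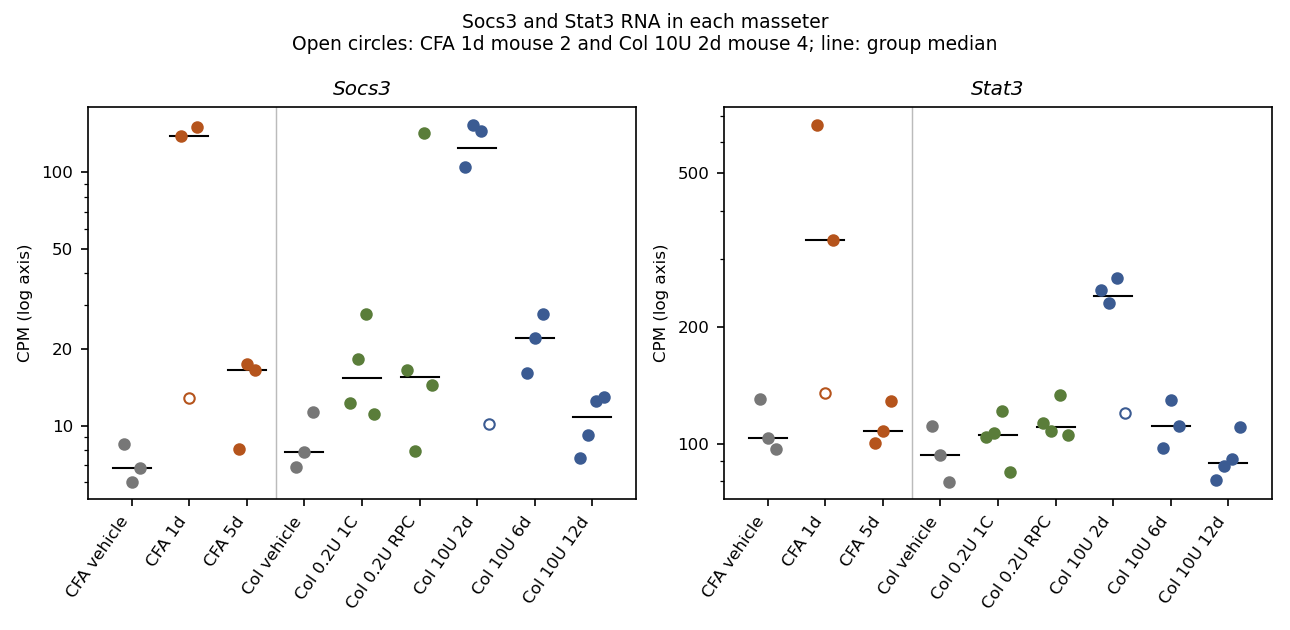
CPM of Socs3 and Stat3 (log axes) in each mouse of the 9 groups, 1 point per mouse, with the group median as a line. The filled points of the CFA 1d and 10U 2d groups stand at 105 CPM of Socs3 or more, and the open points, mouse 2 of the former and mouse 4 of the latter, stand at 12.9 and 10.1 CPM.

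Stat3 (chr11:100746412-100800854, mm9, minus strand), the transcription factor of the pathway and itself known to be raised by its own signal, was high in the early groups together with Socs3. CFA vehicle mice had 131, 103 and 97.0 CPM, the 1d mice 666, 135 and 335 CPM and the 5d mice 100 to 129 CPM. In the Col experiment, the values were 111, 93.8 and 79.9 CPM in vehicle, 250, 230, 268 and 120 CPM at 10U 2d, 97.5 to 129 CPM at 6d and 80.6 to 110 CPM at 12d. All 4 of the 10U 2d mice were above every vehicle mouse of their experiment, mouse 4 by the least. Stat3 shares 72 bases of exon with Stat5a on the opposite strand, 0.36% of its 50-base windows, and whether counting used the strand is not given in the sources used here.

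At 1d post-CFA, no member passed the test. Fitted log2 fold changes (edgeR, ± SE, 3 against 3 mice) were 3.83 ± 0.82 for Socs3, 3.89 ± 1.53 for Osm, 1.77 ± 0.51 for Stat3 and 0.93 ± 0.25 for Osmr, with the same adjusted p of 0.924. Of 8 members tested, 0 were called, as were 0.0% of the 13944 genes tested, while 4 members and 588 genes had an unadjusted p under 0.05. DESeq2 called Socs3 (adjusted p = 4.61e-05) and Stat3 (0.0469), in a table where it called 0.402% of genes. It did not call Osm (adjusted p = 0.265), and Il6 had too few counts for the fit. The study, which also used DESeq2, lists both Il6 and Osm among the genes raised at 1d post-CFA. Without mouse 2 of the 1d group, edgeR called Socs3 alone of the members, at 4.36 ± 0.26 (adjusted p = 0.00663), where 0.138% of genes were called. In that fit Stat3 stood at 2.17 ± 0.34 (adjusted p = 0.102) and Osmr at 1.15 ± 0.20 (0.108). Mouse 2 was singled out by its low Socs3, so the call of Socs3 without it, and its small SE, add no support.

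Osm (chr11:4136423-4141029, mm9, plus strand), made largely by myeloid cells, was close to 0 in vehicle and high in the same mice as Socs3. The CFA vehicle libraries held 1, 0 and 15 counts, the 1d libraries 128, 2 and 94, or 5.24, 0.0889 and 4.2 CPM, and the 5d libraries 11, 1 and 9. Mice 1 and 3 of the 1d group stood above every vehicle mouse and mouse 2 did not. Il6 (chr5:30339701-30346508, mm9, plus strand), the founding cytokine of the family, was likewise high in mice 1 and 3, with 4, 0 and 0 counts in vehicle and 119, 4 and 46 at 1d, that is 4.87, 0.178 and 2.05 CPM. Mouse 2, with as many counts as the highest vehicle mouse, stood at its edge (0.161 CPM). Too few libraries reached 10 counts for the fit. Mean log2(CPM + 0.5) was 1.94 higher at 1d than in vehicle, with an exact permutation p of 0.1 (two-sided), the smallest that 3 against 3 mice allow. At 5d Il6 was at 8, 4 and 2 counts.

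Lif and Il11 stayed within or near the vehicle range at 1d. Lif (chr11:4157560-4172517, mm9, plus strand), a cytokine known to act on muscle precursors, lies 16530 bp from Osm, but its level of 1.06, 1.29 and 1.70 CPM at 1d overlapped the 0.565, 0.775 and 1.88 CPM of vehicle. Il11 (chr7:4724669-4734460, mm9, minus strand), known from fibroblasts and other stromal cells, held 5, 2 and 10 counts at 1d and 0, 0 and 9 in vehicle, and its difference of 0.306 in mean log2(CPM + 0.5) had an exact permutation p of 0.5 (two-sided). Of its 50-base windows, 2.99% occur in transcripts of other genes, which makes such low counts of Il11 less certain.

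After 10U Col, each of the 4 cytokines stood above every vehicle mouse in 3 of the 4 mice of the 2d group. Il6 counts were 23, 52, 216 and 0, or 1.24, 2.96, 9.61 and 0.0 CPM, against 1, 2 and 0 counts in vehicle. Il11 counts were 49, 71, 181 and 4, or 2.64, 4.05, 8.05 and 0.157 CPM, against 1, 0 and 4. Lif had 4.53, 4.05, 15.1 and 1.22 CPM against 1.61, 0.665 and 1.66. For Osm the values were 1.99, 1.25, 7.92 and 0.118 CPM, against 0.305, 0.0665 and 1.03 CPM. Mouse 3 had the highest level of each of the 4 cytokines, and mouse 4 the lowest of each, within the vehicle range.

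**Figure D2:**
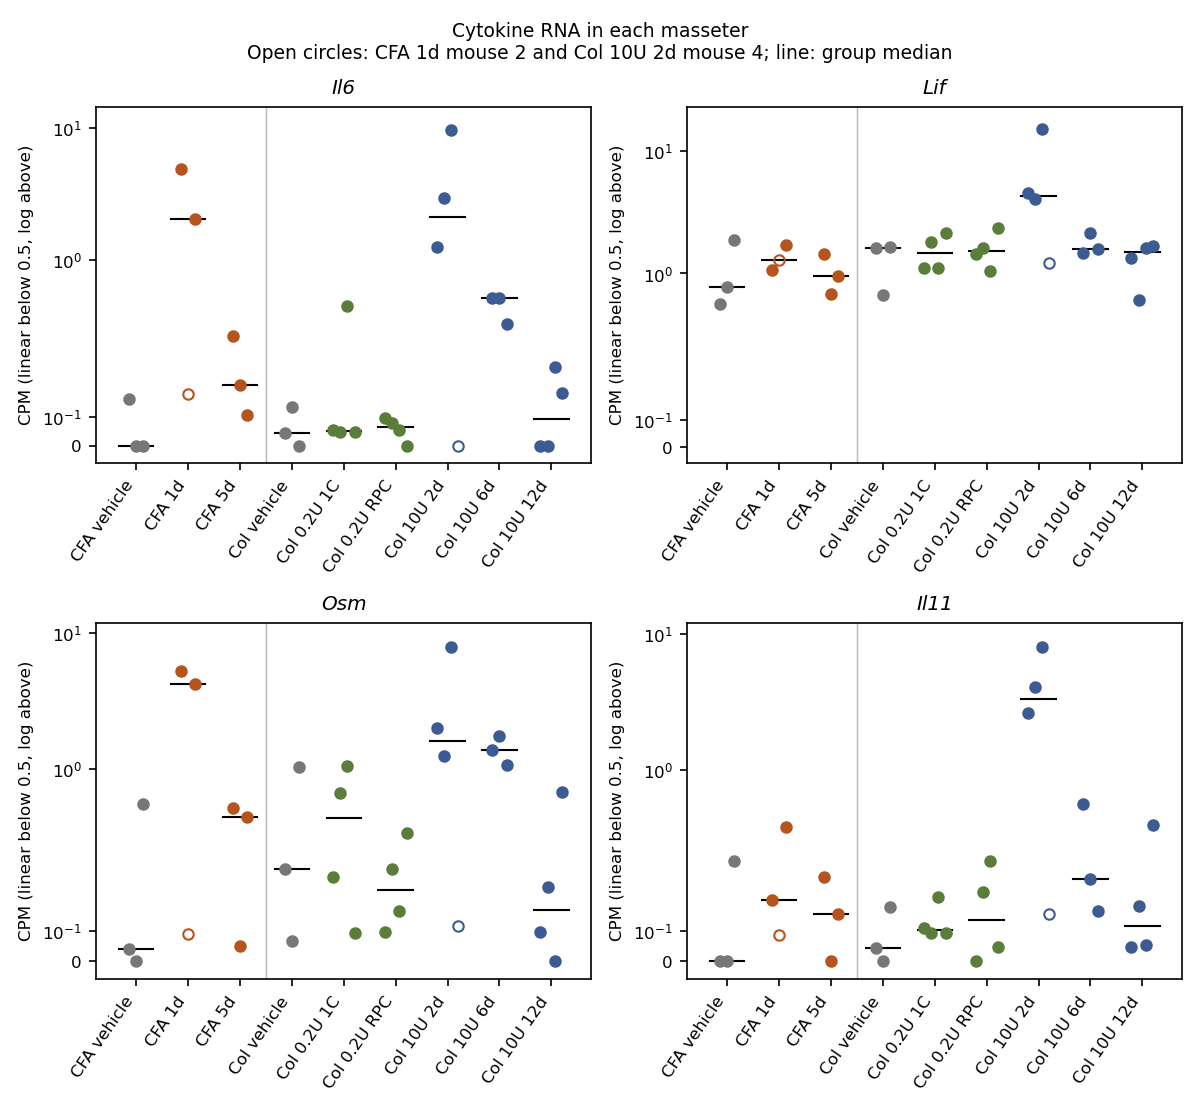
CPM of Il6, Lif, Osm and Il11 in each mouse of the 9 groups (axis linear below 0.5 CPM and logarithmic above), 1 point per mouse, with the group median as a line. Il6 and Osm stand high in the filled points of both CFA 1d and 10U 2d, whereas Il11 reaches 8.05 CPM in 10U 2d and no more than 0.446 CPM in CFA 1d.

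No member passed edgeR's adjusted threshold in this group of 4 mice, in which 2.22% of 14373 genes did, and 6 of the 10 members had an unadjusted p under 0.05. How many of all genes had such a p is not given here, so the 6 are not read as a result about the members. The fitted log2 fold changes were 5.87 ± 1.89 for Il6 (adjusted p = 0.0854), 5.38 ± 1.40 for Il11 (0.063), 2.18 ± 0.83 for Lif (0.116), 2.49 ± 1.30 for Osm (0.213), 3.52 ± 0.83 for Socs3 (0.056), 1.55 ± 0.41 for Osmr (0.0651) and 1.15 ± 0.30 for Stat3 (0.0626). Il6 and Il11 were nearly uncounted in vehicle and passed the count filter through the 2d mice, so that their fitted folds depend on the prior count. The pooled 291 counts of Il6 against 3 in vehicle give a ratio of 69.6, with a 95% interval of 23.6 to 339 (exact conditional binomial) that covers counting error only.

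Which members were called turned on mouse 4 and on the test used. DESeq2, with all mice, called Il6, Lif, Il11, Osmr, Socs3 and Stat3, in a table where it called 23.1% of genes. Without mouse 4, edgeR called 7 members, and 36.3% of 14160 genes. These were Socs3 at 3.90 ± 0.27 (adjusted p = 0.000453), Osmr at 1.81 ± 0.21 (0.00151), Stat3 at 1.35 ± 0.17 (0.00201), Il11 at 5.78 ± 0.87 (0.00352), Il6 at 6.29 ± 1.15 (0.00674) and Lif at 2.52 ± 0.65 (0.0228), all higher, and Lifr at -0.97 ± 0.20 (0.00949), lower. Osm missed in that fit as well (adjusted p = 0.0629). Mouse 4 was singled out by its low values of these members, so calls made without it add no support. Il6 and Il11 passed the count filter only through the 2d mice, so their calls by either method add none.

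Osmr and Lifr, the chains through which oncostatin M and LIF signal, stood on opposite sides of vehicle in most early mice. Osmr (chr15:6763577-6824313, mm9, minus strand) had 20.8, 24.7 and 23.1 CPM in CFA vehicle and 53.5, 29.0 and 48.3 CPM at 1d, where all 3 mice exceeded vehicle. In the Col experiment it had 19.4, 17.8 and 26.1 CPM in vehicle and 72.9, 69.1, 88.2 and 24.6 CPM at 10U 2d, and only mouse 4 stayed within the vehicle range. Lifr (chr15:7079559-7147489, mm9, plus strand) had 120, 107 and 101 CPM in CFA vehicle and 54.6, 152 and 79.4 CPM at 1d. The Lifr values were 108, 92.6 and 140 CPM in Col vehicle, 55.6, 65.4, 59.2 and 133 CPM at 10U 2d and 57.5, 38.4 and 69.2 CPM at 6d. In both early groups the mice with high Osmr were those with low Lifr, and at 6d Lifr was still below every vehicle mouse while Osmr, at 25.3 to 28.2 CPM, had returned to the edge of the vehicle range.

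The ratio of Osmr to Lifr per exon length, a measure chosen after the values had been seen, does not depend on how libraries are scaled. It was 0.370 to 0.492 in CFA vehicle and 0.383 to 0.410 in Col vehicle, so that Lifr was the more abundant chain in each of these mice. In CFA 1d mice the ratio was 2.09, 0.409 and 1.30, and in 10U 2d mice 2.80, 2.26, 3.18 and 0.395. At 10U 6d it was 0.942, 1.55 and 0.872, above all vehicle mice. No group passed a test against its vehicle, and with 3 against 3 mice none could. The two-sided exact permutation p was 0.1 for 10U 6d, the smallest possible there, 0.3 for CFA 1d, and 0.114 for 10U 2d, where 4 against 3 mice allow 0.0286. In the 0.2U 1C mice, at 0.449 to 0.663, each ratio was above all Col vehicle mice (exact permutation p = 0.0571, two-sided).

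**Figure D3:**
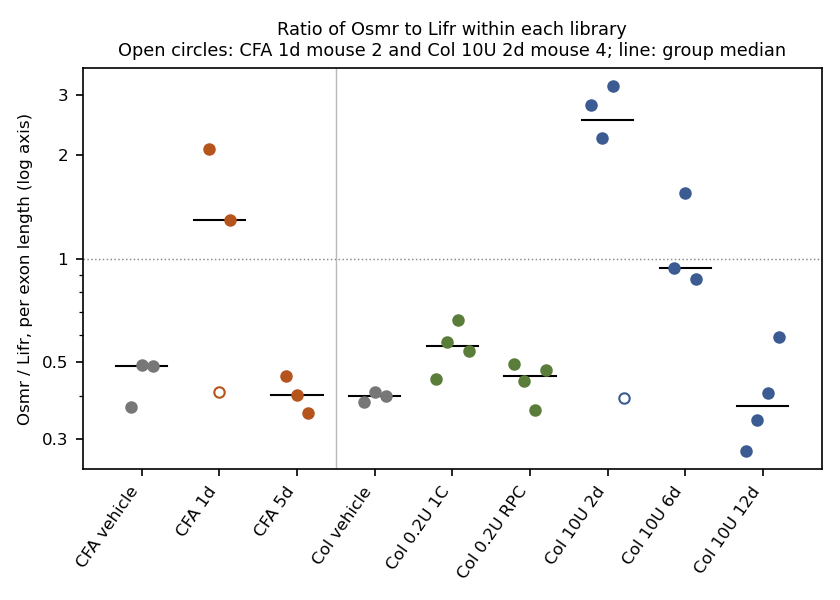
Ratio of Osmr to Lifr per exon length within each library (log axis), 1 point per mouse, with the group median as a line and a dotted line at equal levels. The ratio exceeds 1 in the filled points of CFA 1d and 10U 2d and in 1 mouse of 10U 6d, and is below 1 in the remaining mice.

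**Figure D4:**
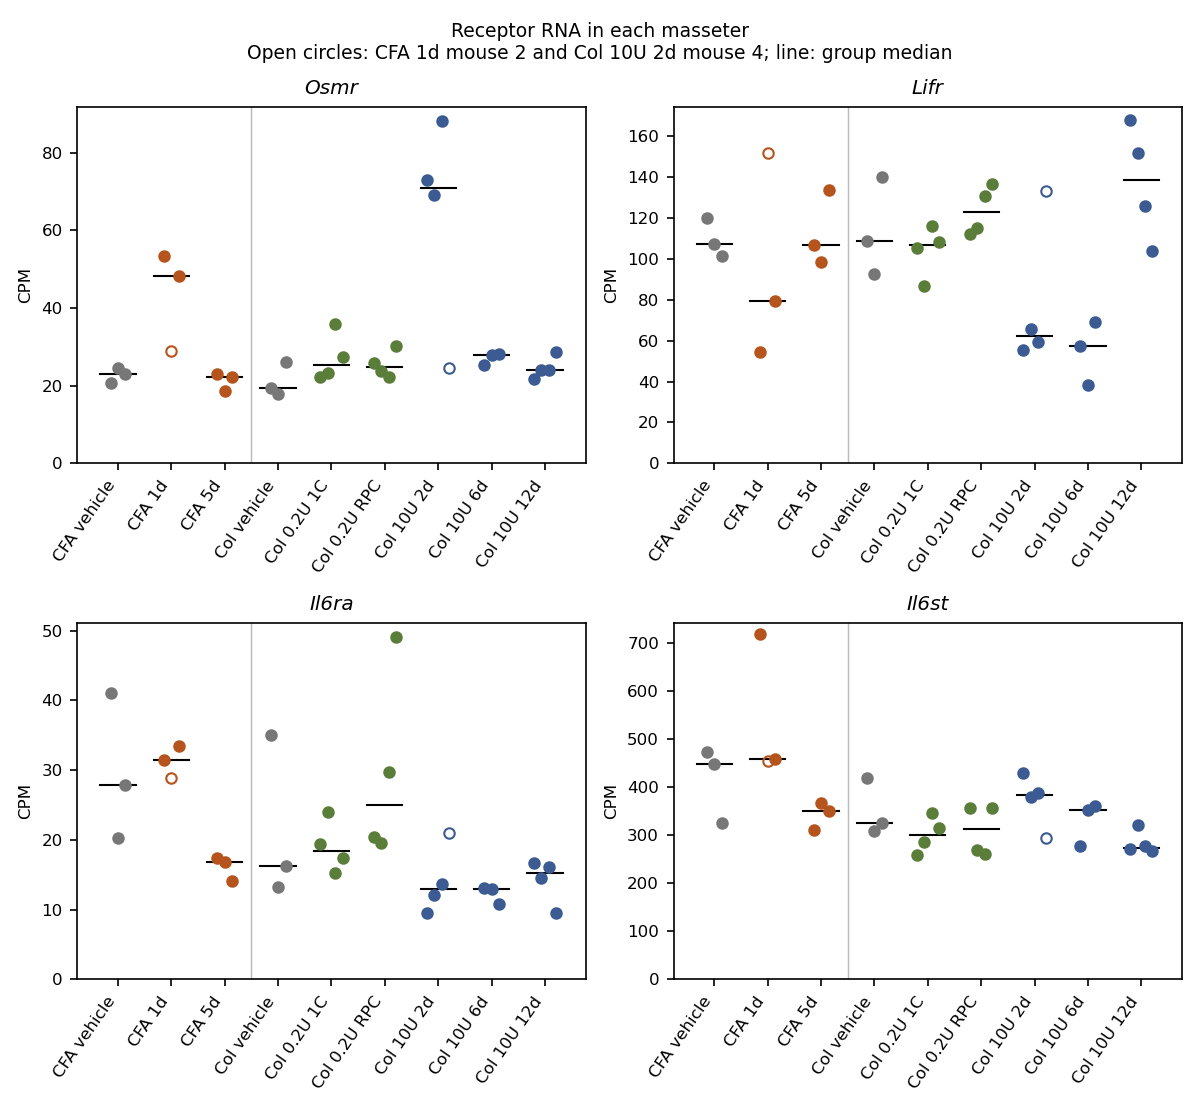
CPM of Osmr, Lifr, Il6ra and Il6st in each mouse of the 9 groups, 1 point per mouse, with the group median as a line and axes from 0. Osmr is high and Lifr low in the filled points of CFA 1d and 10U 2d, and Il6st stays between 260 and 473 CPM except in 1 mouse of CFA 1d at 718 CPM.

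The IL-6 receptor and gp130 stayed nearer to vehicle. Il6st (chr13:113265216-113297068, mm9, plus strand) had 325 to 473 CPM in CFA vehicle and 718, 455 and 458 CPM at 1d, a fitted log2 fold change of 0.39 ± 0.27 (adjusted p = 0.924). At 10U 2d it had 429, 380, 389 and 295 CPM, against 308 to 419 CPM in vehicle, a log2 fold change of 0.04 ± 0.23 (adjusted p = 0.912). Il6ra (chr3:89673246-89717084, mm9, minus strand), the chain that binds IL-6 itself, had 41.1, 20.2 and 27.9 CPM in CFA vehicle, 31.5, 28.9 and 33.5 CPM at 1d and 17.5, 16.8 and 14.1 CPM at 5d. All 5d mice were therefore below every mouse of the other CFA groups. Il6ra was the 1 member of 8 called between 5d and 1d, at -0.92 ± 0.16 (edgeR adjusted p = 0.0172), where 5.84% of 14046 genes were called. The 5d libraries carried salivary gland markers at 86089 to 126497 CPM and those of 1d at 19.0 to 5667 CPM, and the part of this difference in the result was not tested. The call was lost on leaving out mouse 3 of the 1d group or any 1 of the 5d mice, and against vehicle the 5d difference of -0.84 ± 0.26 did not pass (adjusted p = 0.199). With all mice, 6 of the 8 members had an unadjusted p under 0.05 and 5 of them did not pass: Osm at -3.10 ± 1.20 (adjusted p = 0.207), Socs3 at -2.81 ± 0.80 (0.0984), Stat3 at -1.70 ± 0.50 (0.105), Osmr at -1.0 ± 0.24 (0.0595) and Il6st at -0.62 ± 0.23 (0.185). Without mouse 2 of the 1d group, 5 members were called, all lower at 5d, where 9.63% of genes were: Il6ra, Osm at -3.72 ± 0.61 (adjusted p = 0.0119), Osmr at -1.26 ± 0.17 (0.00576), Socs3 at -3.38 ± 0.31 (0.00181) and Stat3 at -2.15 ± 0.30 (0.00663). That mouse was singled out by its low values of members such as Socs3 and Osm, so the calls gained without it add no support. The number of all genes with an unadjusted p under 0.05 is not given for this comparison. The 6 of 8 members at that p are therefore not read as a result about the members.

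At 5d post-CFA none of the 7 members tested was called against vehicle, where 1.11% of 14026 genes were. Socs3 and Il6ra had an unadjusted p under 0.05, as had 1964 of all genes. DESeq2 called Il6ra, where it called 892 of all genes. Socs3 had a log2 fold change of 1.03 ± 0.32 (adjusted p = 0.196), from 2 mice above and 1 within the vehicle range. Osm, at 0.0521 to 0.515 CPM, and Il11, at 0 to 6 counts, overlapped vehicle.

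In the 10U 6d group 3 of 9 members were called, Il6 and Socs3 higher and Lifr lower, against a background of 27.3% of 14281 genes, so that a share of this size was not unusual for the comparison. Socs3 stood at 1.31 ± 0.28 (edgeR adjusted p = 0.0177) and Lifr at -1.07 ± 0.27 (0.0281). Il6 had 12, 15 and 10 counts, or 0.516, 0.513 and 0.415 CPM, against 1, 2 and 0 counts, and a fitted value of 3.08 ± 0.79 (adjusted p = 0.0277). It passed the count filter only through the 6d mice, so that it had to differ and its call adds no support. The study lists Il6 among the genes raised at 6d but not among those raised at its first 10U time point. With the study's criteria, which ask for an RPKM over 1, applied to the fit used here, Il6 was not called at 6d. Its pooled ratio of 37 counts to 3 is 9.71, with a 95% interval of 3.08 to 49.2 for counting error only. Osm, at 1.37, 1.75 and 1.08 CPM, lay just above the highest vehicle mouse at 1.03 CPM (log2 fold change 1.48 ± 0.73, adjusted p = 0.16), and Il6ra was at -0.85 ± 0.36 (0.113). No member was called without mouse 1 of the vehicle group or mouse 2 of the 6d group, Socs3 alone was called without mouse 1 of the 6d group, Lifr alone without mouse 3, and 5 members without mouse 3 of the vehicle group. The shares of all genes called in these left-out fits are not given here. With library sizes alone in place of TMM, which moved the median of all genes to 0.54, Lifr was at -0.58 (adjusted p = 0.181), while Il6 (3.62) and Socs3 (1.81) kept their calls and Stat3 was called as well (0.76, adjusted p = 0.0433). In 6d libraries, 8 of 8 muscle fibre markers had a lower mean than in vehicle, with sums of 37482 to 70133 CPM against 117914 to 183952 CPM, and 10 of 10 monocyte and macrophage markers a higher mean, with sums of 1048 to 2058 CPM against 97.8 to 412 CPM. The part of these tissue differences in the changes of Lifr, Il6 and Socs3 was not tested.

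Lifr and Socs3 stood nearer to vehicle at 12d than at 6d. Lifr rose to 168, 152, 126 and 104 CPM, a log2 fold change of 1.34 ± 0.25 (edgeR adjusted p = 0.0157). Socs3 fell by 1.04 on the log2 scale (SE 0.25, adjusted p = 0.0259). These were 2 of 9 members called where 26.4% of 14344 genes were, so a share of this size was not unusual for the comparison. The 6d mice are those that gave the calls against vehicle, so these comparisons are not independent. All 12d mice were above all 6d mice for Lifr and below them for Socs3. Osm, at 1.08 to 1.75 CPM in 6d mice and 0.0 to 0.679 CPM in 12d mice, did not pass (-2.38 ± 0.77, adjusted p = 0.0537), nor did Il6 (-1.99 ± 0.82, 0.102). Neither call was made without mouse 2 of the 6d group, Socs3 was also lost without mouse 3 of 6d or mouse 1, 2 or 3 of 12d, and 5 members were called without mouse 4 of 12d, whose macrophage markers summed to 790 CPM. The shares of all genes called in these left-out fits are not given here. Macrophage marker sums follow for both groups. Sums of macrophage markers were 1048 to 2058 CPM at 6d and 117 to 790 CPM at 12d, those of muscle fibre markers 37482 to 70133 and 58189 to 145116 CPM, and those of satellite cell markers 320 to 414 and 127 to 150 CPM, and their part in the result was not tested. Against vehicle, none of the 7 members tested was called at 12d, where 1.23% of 14176 genes were, and none had an unadjusted p under 0.05. DESeq2 called none either. Il6 was at 0, 0, 5 and 4 counts.

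Between 10U 2d and 6d, no member of 10 was called, where 8.73% of 14513 genes were, and 5 members had an unadjusted p under 0.05. DESeq2 called Il11, Osmr, Socs3 and Stat3, where it called 2707 of 14513 genes. Il11 had 49, 71, 181 and 4 counts at 2d and 13, 8 and 4 counts at 6d. It passed the count filter only through the 2d mice, so its call adds no support. No number of all genes at an unadjusted p under 0.05 is given here. The 5 members at that p are therefore not read as a result about the members. The fitted changes were all lower at 6d, with -3.46 ± 1.11 for Il11, -2.82 ± 1.35 for Il6, -2.21 ± 0.77 for Socs3, -1.84 ± 0.76 for Lif, -1.21 ± 0.38 for Osmr and -0.92 ± 0.28 for Stat3. Without mouse 4 of the 2d group these 6 were called, where 28.8% of genes were, with Socs3 at -2.59 ± 0.24 (adjusted p = 0.000541) and Il11 at -3.87 ± 0.58 (0.00343). That mouse was singled out by its low values of these members, so these calls add no support. Lifr, at -0.10 ± 0.21 in that fit, was at a like low level in both groups.

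**Figure D5:**
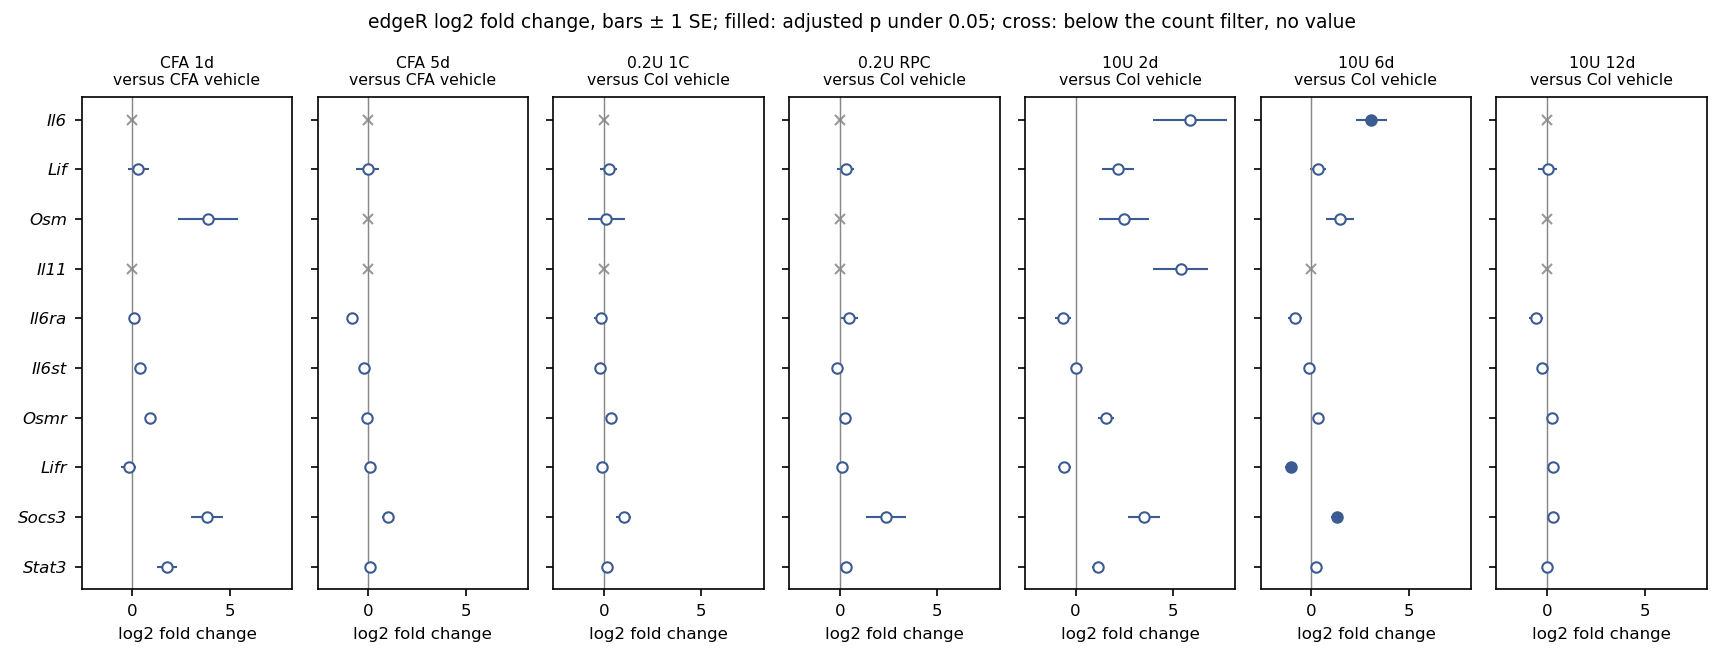
Fitted log2 fold changes of the 10 members against vehicle in 7 groups (edgeR, bars ± 1 SE), with filled points for an adjusted p under 0.05 and crosses for members below the count filter. The 3 filled points are Il6, Lifr and Socs3 in 10U 6d, while the largest values, of Il6 and Il11 in 10U 2d, have wide bars.

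Mice of the 0.2U groups differed little from vehicle. In the 1C group no member of 8 was called, as were 0.0% of 14493 genes by edgeR, with 1 member and 1819 genes at an unadjusted p under 0.05 and 519 genes, none of them a member, by DESeq2. Socs3 had 12.3, 18.4, 27.7 and 11.1 CPM, of which 3 values lay above the highest vehicle mouse at 11.4 CPM, and a log2 fold change of 1.0 ± 0.36 (adjusted p = 0.339). Il6 was at 1, 1, 9 and 1 counts, and mouse 3, with the 9 counts, also had the highest Socs3, Osmr and Osm of its group. In the RPC group no member of 7 was called, as were 0.0% of 14269 genes, with 1 member and 1923 genes at an unadjusted p under 0.05 and 443 genes, none of them a member, by DESeq2. Its Socs3 values were 16.6, 7.95, 143 and 14.5 CPM, and the log2 fold change of 2.38 ± 1.02 (adjusted p = 0.369) was 0.60 ± 0.35 without mouse 3.

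That mouse had a level of Socs3 as high as the early 10U mice, without the cytokines. It held 1 count of Il6, 3 of Osm and 6 of Il11, its Lif of 1.05 CPM and Osmr of 22.2 CPM were the lowest of its group, and Stat3 was at 134 CPM against 105 to 113 CPM in the others. Other inhibitors of JAK signalling were high with Socs3 in it: Socs1 at 11.3 CPM against 0.841 to 1.04 CPM, Socs2 at 29.2 against 9.14 to 15.3 CPM, and Cish at 224 against 19.7 to 93.2 CPM. The acute phase genes Hp (316 CPM against 103 to 131) and Fgg (91.5 against 0.0 to 16.4) were also high. Of other genes known to respond to STAT3, Bcl3 and Junb were the highest of the group. Lcn2 (6.27 against 18.6 to 28.8), Timp1 (2.33 against 5.18 to 16.6) and Lrg1 (18.1 against 19.9 to 23.5) were the lowest. Hp and Fgg were also high, at 186 and 59.5 CPM, in mouse 4 of 10U 2d, which had the lowest Socs3 of its group. All these genes were looked up in the RPC mouse after its Socs3 had been seen. Salivary gland markers summed to 126379 CPM in it and to 17173, 178954 and 63291 CPM in the other RPC mice. It stood apart in keratinocyte markers (454 CPM against 102 to 127), bone markers (6.27 against 66.5 to 117), satellite cell markers (19.9 against 46.3 to 54.3) and fibro-adipogenic progenitor markers (1096 against 3084 to 5061), and the part of these in its Socs3 level was not tested.

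The early changes after CFA and after 10U Col were compared with an interaction term. None of 10 members differed (0 at an unadjusted p under 0.05, 0 by DESeq2, 0.0946% of 14794 genes called by edgeR). Il11 had the largest difference, -4.34 ± 2.07 on the log2 scale for CFA minus Col (adjusted p = 0.723), and Lif was at -1.85 ± 1.06 (0.744). Osm was at 1.41 ± 2.07 (adjusted p = 0.873), Il6 at -0.58 ± 2.80 (0.968) and Socs3 at 0.31 ± 1.16 (0.956). With standard errors of 1.06 to 2.80 for the cytokines, a difference of several fold between the injections was not detectable.

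Markers of other cells were set beside the mice that stood apart. In the CFA 1d group, monocyte and macrophage markers summed to 607, 204 and 443 CPM, against 76.3 to 349 CPM in vehicle, and 10 of 10 had a higher mean at 1d. Mouse 2, with the lowest Socs3 of its group, had the lowest sum. In the 10U 2d group the sums were 595, 746, 1232 and 510 CPM, against 97.8 to 412 CPM, again with 10 of 10 higher, so that mouse 4, whose cytokines were within the vehicle range, was above vehicle in these markers. Neutrophil markers summed to 94.2, 253, 376 and 355 CPM in the 10U 2d mice and up to 1499 CPM in Col vehicle. Muscle fibre markers in 10U 2d summed to 32469, 41557, 40761 and 75471 CPM, and salivary gland markers to 43388, 56312, 35.5 and 71300 CPM. Mouse 3, with the highest cytokines, had the least salivary RNA. Mice 1 and 2, with high Socs3, and mouse 4, with low Socs3, had much of it. The part of the marker differences in the levels of the members was not tested. In these 4 lists, no marker was at 0 throughout either group.

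Other genes of the pathway were taken from 3 lists: 11 further cytokines and receptors of the gp130 family, 12 Janus kinases and pathway inhibitors, and 17 genes known to respond to STAT3. Among the first list, 7 were tested in each comparison. Clcf1, a cytokine of the family, rose at 10U 6d by 1.13 ± 0.34 (edgeR adjusted p = 0.0441), where 27.3% of all genes were called. Ctf1, cardiotrophin 1, rose between 6d and 12d by 0.94 ± 0.23 (0.0275), where 26.4% of all genes were called. No other gene of this list was called in any comparison. A share of 1 in 7 is below that of all genes in both, so neither call is read as a result about the list. Cntf, the ciliary neurotrophic factor, was at 0.196 CPM or less in every mouse. Of the second list, 4 of 12 rose at 10U 6d, a share near the 27.3% of all genes called there: Socs1 by 1.62 ± 0.33, Socs2 by 1.41 ± 0.21, and the receptor-shedding proteases Adam10 by 0.86 ± 0.23 and Adam17 by 0.74 ± 0.15. The list's median was 0.39, where that of all genes was 0.01. Between 6d and 12d, where 26.4% of all genes were called, Socs2 (-0.91 ± 0.26) and Ptpn6 (-2.45 ± 0.61) fell and Jak2 (0.44 ± 0.13) rose.

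Among genes known to respond to STAT3, calls were made in both directions. At 10U 2d, 2 of 16 tested were called, where 2.22% of all genes were, both higher, with a median over the list of 1.21. These were Cebpb at 3.10 ± 0.36 (edgeR adjusted p = 0.0184) and Cebpd at 1.77 ± 0.29 (0.0408), transcription factors of the acute phase response. Cebpb was at 174 to 308 CPM in all 4 mice, mouse 4 included, against 16.0 to 38.2 CPM in vehicle, and at 12d it was at 92.5 to 191 CPM (2.37 ± 0.36, adjusted p = 0.0232). At 1d post-CFA the list's median was 1.05 with 0 of 16 called. At 10U 6d, where 27.3% of all genes were called, 4 of 16 were higher, among them Timp1 at 3.40 ± 0.63 and Junb at 1.93 ± 0.39, and 3 were lower, among them Lcn2 at -6.38 ± 1.39 and Hp at -1.95 ± 0.52. Salivary gland markers summed to 2.61 CPM or less in the 6d mice and to 25.7 CPM or more in vehicle, and neutrophil markers to 14.3 to 19.3 CPM against 14.9 to 1499 CPM, and their part in these values was not tested. From 1d to 5d post-CFA, where 5.84% of all genes were called, 4 of 16 fell, Junb at -3.55 ± 0.80, Cebpd at -2.37 ± 0.31, Cebpb at -1.49 ± 0.22 and Lrg1 at -1.01 ± 0.20, and none rose. From 10U 2d to 6d, where 8.73% of all genes were called, 5 of 16 fell, with Lcn2 at -4.97 ± 0.62 and Cebpb at -2.86 ± 0.37, and none rose. From 10U 6d to 12d, where 26.4% of all genes were called, Cebpb rose by 2.12 ± 0.37 and 5 of 16 fell, with Timp1 at -2.10 ± 0.63, Myc at -1.49 ± 0.18 and Bcl3 at -1.40 ± 0.25.

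For the 7 members with at least 10 counts in 25 or more libraries, the genes most alike in pattern were found by Pearson's r of log2(CPM + 0.5) over the 31 libraries, among 13510 genes. These values describe the libraries and have no p, since libraries of a group share their treatment and all share the same scaling. Osmr was most like the neutrophil-attracting chemokines Cxcl5 (r = 0.945) and Cxcl3 (0.939), and Stat3 was most like Sbno2 (0.936), with Cxcl2 (0.919) among its 3 nearest. Socs3 was most like Tnfrsf12a, the receptor of TWEAK (0.901), Clic4 (0.898) and Ch25h (0.880). Lif had Hnrnpul2 (0.846), Il1rl1, the receptor of interleukin 33 (0.837), and Pfkp (0.825). Lifr was most like Lgr4 (0.913), Il6st like Grlf1 (0.904) and Il6ra like Rev1 (0.821). No member was among the 3 nearest genes of another member.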

How the data were processed

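The authors deposited 1 table of raw read counts per gene symbol for each of 31 mice, made with bcl2fastq, TopHat2 (build mm9) and HTSeq per the labels, from stranded poly(A) libraries with single-end reads of 50 bases, and neither normalized nor filtered. Closing lines that name no gene, which made up 41.7 to 58.9% of a table's total, stayed out. Counting error alone limits values of a few counts. Symbols were joined to GENCODE vM1 for exon lengths and coordinates.

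Genes with at least 10 counts in 3 libraries of a comparison entered edgeR 4.0.16 under R 4.3.3 (TMM, quasi-likelihood test, group as the only factor, Benjamini-Hochberg adjustment over all genes tested), on the compared libraries alone, and called at an adjusted p under 0.05. Fold changes are given for members with an unadjusted p under 0.05 or a change of 1 or more, for gp130 in the early groups and, in the interaction, for the cytokines and Socs3. Members below the filter had a two-sided exact permutation test on log2(CPM + 0.5) (Python 3.11.15). All 10 members and, from each pathway list, up to 4 called genes of largest change per comparison are named. Members and lists were chosen with earlier results of these data known. No label or text says whether mice of a group were littermates.

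Same-numbered mice are different animals. In CFA 1d and its vehicle, all 3 same-numbered pairs deviated together (lowest r 0.118, mean 0.271), so the number was also fitted as a replicate block, and 0 members were called with or without it. The 31 tables were also set against each other, and all 465 pairings differed. The alternatives were DESeq2 1.42.0, its size factors in edgeR, library sizes alone, no count filter, 1 shared fit, the study's fold and RPKM criteria, pooled vehicles, the block and each mouse left out. The scripts were tested on simulated data.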

Additional observations from a re-analysis of the deposited data

Results flagged for a closer look

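Dixon's ratio, the gap of an extreme mouse over the range of its group, passed its 95% critical value in 5 of 40 member and group combinations with 4 mice, and chance flags about 1 in 20. Socs3 was 143 CPM in mouse 3 of the RPC group, against 7.95 to 16.6 CPM in the others. Lifr was 133 CPM in mouse 4 of the 10U 2d group, against 55.6 to 65.4 CPM. In mouse 3 of the 1C group, Il6 was 0.478 CPM, against 0.0466 to 0.0556 CPM, and Il11 was 0.212 CPM, against 0.0931 to 0.111 CPM, which is 9 counts against 1 and 4 counts against 2. Il6st was 322 CPM in mouse 2 of the 10U 12d group, against 268 to 277 CPM.

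Changes against the same vehicle differed between time points for 3 members by edgeR's test of the difference. Il6ra was lower at 5d than at 1d post-CFA (log2 fold change -0.92), where 5.84% of all genes were called. Lifr was higher (1.34) and Socs3 lower (-1.04) at 10U 12d than at 6d, where 26.4% of all genes were called, so calls were common there. Each of these calls was lost when certain single mice were left out.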

How the results depend on the processing

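The direction of 42 of 46 member fold changes held under each alternative run for it. The exceptions all belong to the difference between CFA 1d and 10U 2d, which passed no test: with a mouse left out it ran from -1.61 to 2.83 for Il6, -5.79 to 0.081 for Il11, -0.11 to 0.78 for Lifr and -0.14 to 0.83 for Socs3, which was -0.34 with the replicate block. Members called by DESeq2 were 2 for CFA 1d, 1 for CFA 5d, 6 for 10U 2d, 5 for CFA 5d against 1d and 4 for 10U 6d against 2d, where edgeR called 0, 0, 0, 1 and 0. One fit shared by all libraries gave 6 for 10U 2d, 1 for 10U 6d (Lifr, where 3 were called), 2 for CFA 5d against 1d, 3 for 10U 6d against 2d and 1 for 10U 12d against 6d (Lifr, where 2 were called). Pooled vehicles gave 6 for 10U 2d. The study's fold and RPKM criteria gave 0 for CFA 5d against 1d, and library sizes alone gave 5. With a mouse left out, the calls ran from 0 to 1 for CFA 1d, 0 to 7 for 10U 2d, 0 to 5 for 10U 6d, 0 to 5 for CFA 5d against 1d, 0 to 6 for 10U 6d against 2d and 0 to 5 for 10U 12d against 6d. By CPM without TMM, 3 values in place of 5 stood apart by Dixon's ratio.

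With the replicate block, 8 members were called for 10U 2d, 3 for CFA 5d against 1d and 5 for 10U 6d against 2d. Counts of all called genes, given below, rose in these comparisons too. Same-numbered pairs did not deviate together there (lowest r -0.21 for 10U 2d, -0.05 and -0.21). Mouse 4 of 10U 2d has no same-numbered partner and so drops out of the blocked comparisons, and other causes were not tested. That mouse was singled out by its low values of the members, so the blocked calls for 10U 2d and for 10U 6d against 2d add no support. At 10U 6d the block kept Lifr and Socs3 and not Il6, a count of 2. It moved no other count of member calls by more than 1.5 times.

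Library sizes alone moved the median log2 fold change of all genes to 0.11 (CFA 1d), -0.37 (CFA 5d), 0.30 (1C), -0.15 (RPC), 0.38, 0.54 and 0.33 (10U 2d, 6d and 12d). The split of called genes, higher to lower, then changed from 164 and 155 to 100 and 27 at 10U 2d, from 1994 and 1906 to 4347 and 599 at 6d, from 108 and 66 to 131 and 37 at 12d, from 681 and 139 to 558 and 3302 for CFA 5d against 1d, and from 679 and 588 to 805 and 331 for 10U 6d against 2d. At 5d post-CFA 155 calls became 0. Counts of all called genes, from 0, 155, 0, 0, 319, 3900 and 174 against vehicle (CFA 1d, CFA 5d, 1C, RPC, 10U 2d, 6d and 12d), 820, 1267 and 3785 between times (CFA, 10U 2d to 6d, 10U 6d to 12d), 6 between vehicles and 14 for the interaction, moved by over 1.5 times as follows. DESeq2 gave 56, 892, 519, 443, 3322 and 902 (10U 12d), 1471, 2707, 65 and 108. The shared fit gave 38 (CFA 5d), 137 (1C), 4943 (10U 2d), 778 (10U 12d), 57 and 97. The block gave 1 (CFA 1d), 1 (1C), 10 (RPC), 4500, 1473 and 43 (10U 2d, 6d and 12d), 2208, 7056, 0 and 162. Pooled vehicles gave 0 (CFA 5d), 287 (1C), 17 (RPC), 5043, 5875 and 450 (10U 2d, 6d and 12d). The study's criteria gave 2224 and 114 (10U 6d and 12d), 780 and 1436, DESeq2's size factors 60 (CFA 5d), and library sizes alone 1 (1C), 127 (10U 2d) and 3860 (CFA 5d against 1d). With the study's criteria applied to the edgeR fit, Il6 was not called at 10U 6d, where the study lists it as raised.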
